A study of Mus musculus with 27 samples.

Results

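The genotype difference between cultured hair follicle stem cells (HFSCs) in serum, without added retinoic acid, was taken from 4 RNA-seq libraries, out of 27 samples listed for the study. Of the 4 libraries, 2 were of wild-type cells and 2 of cells labelled as conditional knockout (cKO) for the retinoid X receptor gene Rxra. Members were the library columns labelled wild-type or Rxra cKO in FBS. HFSCs had been sorted from resting back skin at postnatal day 55 and expanded as lines on inactivated feeder cells. The study describes 3D colonies in a basement membrane gel, in medium with fetal bovine serum (FBS) and a ROCK inhibitor. At first this medium also held the growth factor EGF or FGF10. The paper's RNA-seq methods do not say whether these libraries came from such colonies. Serum medium is what the study uses to keep cells in lineage plasticity. The 2 Rxra cKO FBS libraries came from 2 mice carrying Sox9-CreER, 2 floxed Rxra alleles and a Rosa26-YFP reporter, and the 2 wild-type FBS libraries came from 2 mice for which no Cre, floxed allele or reporter is given. Another 4 libraries of the same genotypes in serum-free medium with all-trans retinoic acid and an inhibitor of protein kinase C (atRA+PKCi) were used to estimate the spread and as the comparison medium. They were taken as coming from the same mice, which the labels do not state outright.

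Several things therefore differ, or may differ, between the groups besides Rxra. Sox9-CreER acts in Sox9-expressing cells only after tamoxifen, and each culture is a line from 1 mouse. Loss of Rxra, Cre, the reporter, any difference in strain background and the history of each line therefore cannot be told apart. The paper lists the Cre, floxed and reporter alleles on C57BL backgrounds, and wild-type mice of CD1 and C57BL strains. The sources used here do not give the strain of the wild-type cultures. Mice of both sexes were used to derive lines, and the sex-linked genes Xist and Ddx3y are given further on. The libraries are bulk RNA, in which fewer cells of a type and less RNA per cell cannot be told apart.

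RXRα is a nuclear receptor that binds DNA together with a partner. With retinoic acid receptors (RARα, RARβ, RARγ) it forms the pair that retinoic acid switches on, and with PPARs, LXRs, FXR, thyroid hormone receptors and the vitamin D receptor it serves the sensing of lipids and hormones. In skin, retinoid signaling is known for its effects on keratinocyte differentiation and on the hair cycle. HFSCs are marked by SOX9, LHX2, KRT15 and CD34 in the resting bulge, and after wounding or in culture they take on epidermal factors such as KLF5 beside SOX9, which is the dual state called lineage plasticity.

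RAR-RXR pairs bind direct repeats of a hexamer, of which the promoter of Rarb, the classic target, holds the textbook example. The 250 bases before its start are shown with the 2 hexamers in capitals, 5 bases apart (GRCm38.p6, chr14:16575477-16575726, minus strand, sequence from RefSeq).
Rarb: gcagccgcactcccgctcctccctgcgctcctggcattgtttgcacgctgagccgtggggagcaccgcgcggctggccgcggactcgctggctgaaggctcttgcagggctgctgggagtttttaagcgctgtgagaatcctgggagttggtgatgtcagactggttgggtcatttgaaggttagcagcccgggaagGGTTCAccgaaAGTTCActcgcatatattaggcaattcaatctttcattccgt
The next 3 promoters belong to genes of the glycolysis and hypoxia list described further on. Capitals mark ACGTG or GCGTG, the core that hypoxia-inducible factors bind, on either strand. Egln3 lies at chr12:54203875-54204124 on the minus strand, Slc2a1 at chr4:119108495-119108744 on the plus strand and Ldha at chr7:46845554-46845803 on the plus strand, in the same build.
Egln3: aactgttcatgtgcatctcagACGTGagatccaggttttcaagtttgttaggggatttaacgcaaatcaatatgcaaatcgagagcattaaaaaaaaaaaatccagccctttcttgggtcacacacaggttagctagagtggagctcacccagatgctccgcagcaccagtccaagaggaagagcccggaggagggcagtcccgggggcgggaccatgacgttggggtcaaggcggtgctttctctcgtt
Slc2a1: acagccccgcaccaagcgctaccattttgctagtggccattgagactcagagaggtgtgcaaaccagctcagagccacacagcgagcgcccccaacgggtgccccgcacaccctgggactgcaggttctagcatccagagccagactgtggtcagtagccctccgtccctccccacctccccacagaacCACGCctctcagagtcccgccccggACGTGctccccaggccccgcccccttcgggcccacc
Ldha: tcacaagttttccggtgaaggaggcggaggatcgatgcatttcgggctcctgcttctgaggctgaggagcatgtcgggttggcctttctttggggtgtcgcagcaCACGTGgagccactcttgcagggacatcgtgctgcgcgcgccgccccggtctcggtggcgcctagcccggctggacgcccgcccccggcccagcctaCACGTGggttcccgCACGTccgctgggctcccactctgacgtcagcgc
Direct repeats were searched as 2 hexamers with a spacer of 1 to 5 bases, on either strand, where a hexamer was AGGTCA or the variant AGTTCA or the variant GGGTCA or the variant GGTTCA. One occurred between 250 bases before and 50 after the start in 54 of the 10629 tested genes with a RefSeq promoter (0.508%). The share was 0.528% of genes higher (14 of 2654) and 0.363% of genes lower (9 of 2482) in Rxra cKO FBS. The core ACGTG or GCGTG, which overlaps itself in the palindrome CACGTG and is then counted on both strands, was in 66.5% of all these promoters, in 68.4% of those of lower genes and in 18 of 20 (90%) of the glycolysis and hypoxia promoters. A match of letters is a description and not a binding site.

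Depth was similar in all 4 FBS libraries, with 30056684 and 29314664 estimated counts in wild-type and 27579919 and 32120363 in Rxra cKO. Levels are given as CPM, counts per 1000000 of the library total scaled by TMM (trimmed mean of M-values). Changes are log2 fold changes of Rxra cKO over wild-type, with a standard error (SE) from the fit, and a gene counts as higher or lower at a Benjamini-Hochberg adjusted p under 0.05 in the quasi-likelihood test of edgeR. Pearson correlations of log2 CPM over genes were 0.994 between the wild-type and 0.9954 between the Rxra cKO libraries, and 0.9658 to 0.9687 across genotypes. Mitochondrial transcripts took 5.36% and 5.9% of counts in wild-type and 6.34% and 7.35% in Rxra cKO, so that the groups did not overlap, and the part of this in the results was not tested.

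The genotypes differed across much of the transcriptome. Of 15965 genes tested, 6840 passed (42.8%), with 3565 higher (22.3%) and 3275 lower (20.5%) in Rxra cKO FBS. Most of these changes were small, since 4598 of the 6840 (67.2%) were less than 1 on the log2 scale and the median size was 0.67. Larger changes were mostly upward, with 1434 genes higher and 808 lower by more than 1, and 782 higher and 226 lower by more than 2. The balance of calls differed with expression level. Of the 10208 genes with a mean above 5 CPM, 2355 were higher (23.1%) and 2802 lower (27.4%). Fewer genes had any count in wild-type FBS (20253 and 20317) than in Rxra cKO FBS (21440 and 21809). The 2 groups did not overlap for 10926 genes (68.4%), all 6840 called genes among them. Every count of members below is to be read against these shares, and for well-expressed genes against those of genes above 5 CPM. In the atRA+PKCi medium 3670 genes were higher (23%) and 3225 lower (20.2%) in Rxra cKO.

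**Figure D1:**
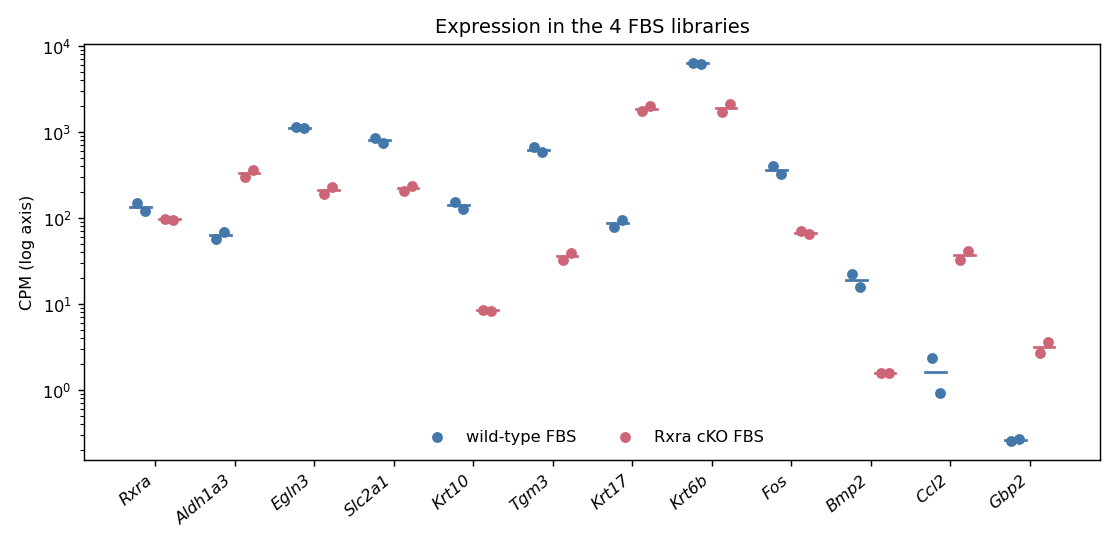
CPM (log axis) of 12 genes in the 4 FBS libraries, with points for the libraries, short lines for the mean of 2 mice, blue for wild-type and red for Rxra cKO. The groups do not overlap for any of the 12 genes, from the small difference of Rxra to the largest of Krt17 and Ccl2.

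Beside changes of single genes, 2 long stretches of the genome were shifted as a whole. Distal chromosome 2, from position 127008717 to the last tested gene, which ends at 181870830 (GRCm38), held 337 genes above 5 CPM with a median log2 change of -0.67 (quartiles -0.89 to -0.42), of which 81.9% were lower, and 94.1% lay below 0. Chromosome 14 from 30 to 60 Mb held 153 such genes with a median of 0.79 (0.52 to 1.03), of which 80.4% were higher. The median over all 10208 genes above 5 CPM was -0.03, and every chromosome other than 2, 14 and 16 had a median between -0.12 and 0.14.

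Each mouse gave the same shifts. Against the wild-type mean, the distal chromosome 2 median was -0.66 in Rxra cKO 1 and -0.66 in Rxra cKO 2, while the 2 wild-type libraries differed there by a median of 0.03. The chromosome 14 median was 0.79 in both. The same stretches stood out in atRA+PKCi, with medians of -0.65 and 0.79. Chromosome 16 was shifted less, with a median of 0.25 in FBS and 0.35 in atRA+PKCi. Shorter runs were shifted too, as read in bins of 10 Mb with at least 15 such genes. The 216 bins outside the stretches had medians between -0.31 and 0.60. The highest were chromosome 16 from 40 to 50 Mb with 0.60 (0.36 in atRA+PKCi), chromosome 3 from 150 to 160 Mb with 0.45 (0.24) and chromosome 16 from 90 to 100 Mb with 0.39 (0.17). Chromosome 11 had 0.32 from 70 to 80 Mb (0.38) and 0.37 from 80 to 90 Mb (0.22). The stretches were noticed after the values were seen, so they carry no test. Gene copy number was not measured in these cultures, and whether it differs between the genotypes in the stretches was not tested, so that the values of genes that lie there are RNA levels of the cultures and not levels per gene copy.

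Rxra lies on the same chromosome but outside the shifted stretch. Genes within 10 Mb of Rxra had a median of -0.12 (186 genes) and chromosome 2 before the stretch had -0.09 (506 genes). Among all tested genes, the distal chromosome 2 stretch held 308 lower genes, 9.4% of all lower calls, and the chromosome 14 stretch held 148 higher genes, 4.15% of all higher calls. Outside both, 3395 genes were higher and 2957 lower. Genes named below that lie in a stretch are marked as such.

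**Figure D2:**
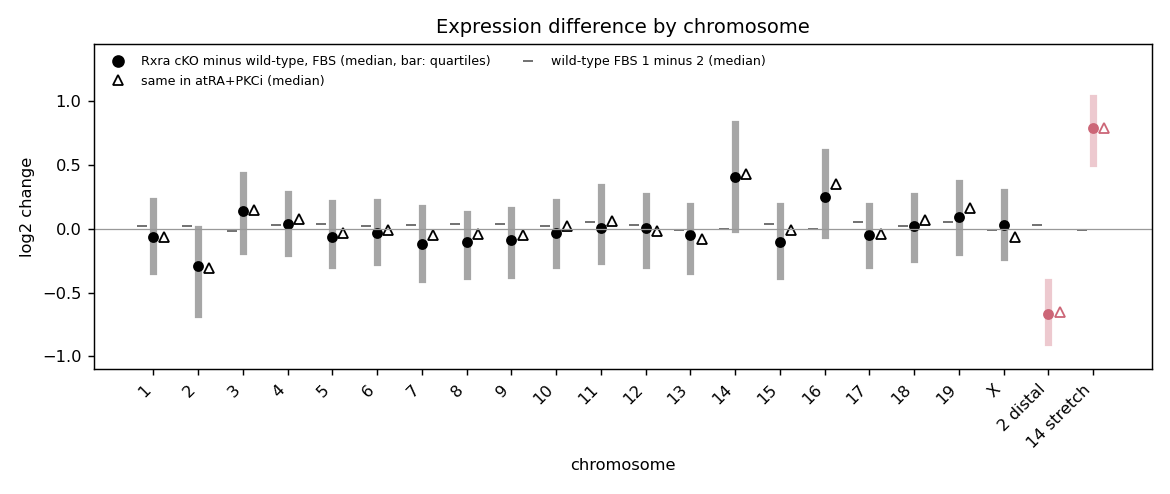
Median log2 change of genes above 5 CPM by chromosome (circles, bars for quartiles) in FBS, with triangles for the median in atRA+PKCi and dashes for the median difference of the 2 wild-type FBS libraries. The distal part of chromosome 2 (-0.67) and the stretch of chromosome 14 (0.79), drawn in red at the right, lie apart from the other chromosomes, and the wild-type libraries differ by 0.05 or less.

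**Figure D3:**
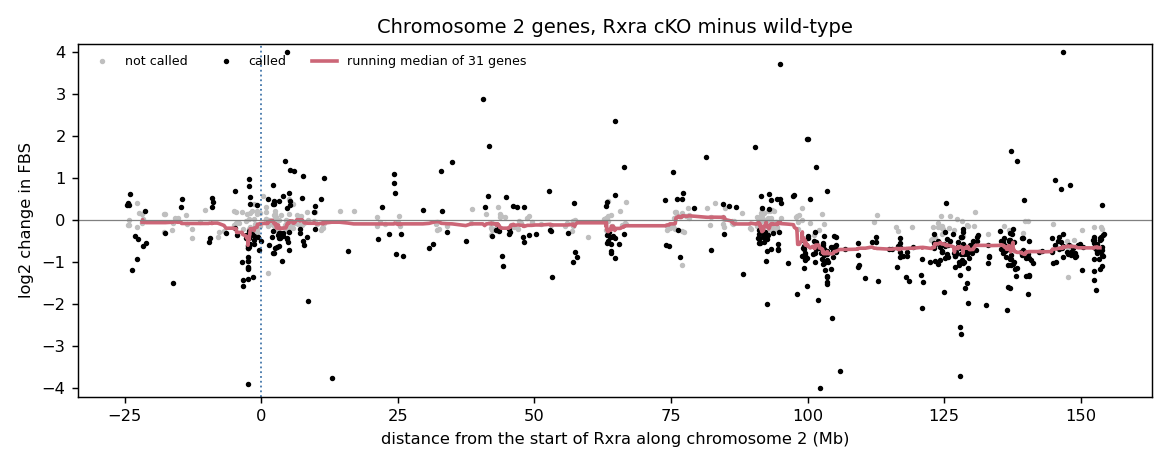
Log2 change in FBS of the 843 chromosome 2 genes above 5 CPM against the distance of each gene's start from that of Rxra in Mb, with called genes in black, a running median of 31 genes in red and 3 genes drawn at the axis limit of 4. The running median stays near 0 around Rxra and drops toward -0.67 in the distal part.

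Rxra itself (chr2:27676440-27762957, plus strand, GENCODE M21 on GRCm38) was lower but far from absent. It stood at 149 and 122 CPM in wild-type and at 97.2 and 95.7 CPM in Rxra cKO, a log2 change of -0.49 (SE 0.09, adjusted p = 0.00264), 0.71 of the wild-type level. Counts per gene include reads from exons outside the floxed part, so this value cannot show how many cells had recombined. In atRA+PKCi the libraries had 147 and 143 CPM in wild-type and 148 and 145 CPM in Rxra cKO (log2 change 0.01, adjusted p = 0.927), and the genotype difference differed between media (-0.51, adjusted p = 0.0216). The gene-level count therefore separates the genotypes in FBS and not in atRA+PKCi.

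Of 5 tested retinoid receptors, Rxra included, 3 were lower and 1 higher. Rarg, the main RAR of keratinocytes, was lower, from 123 and 97.3 to 78.4 and 74.4 CPM (-0.53, SE 0.10, adjusted p = 0.00337), and it was -0.35 without wild-type replicate 1. Rxrb was lower by less (-0.30), and did not pass without Rxra cKO replicate 1 (-0.28, adjusted p = 0.0615), without wild-type replicate 1 (-0.22, adjusted p = 0.0601) or in the fit of only the 4 FBS libraries (-0.30, adjusted p = 0.0599). Rara was higher, from 8.03 and 5.87 to 11.1 and 10.6 CPM (0.64). Rarb, the target whose promoter is shown above, had 1 count in each wild-type library and 5 and 6 counts in Rxra cKO. Its ratio of 4.99 has a 95% counting interval of 1.09 to 46.4, and it did not pass the test across genes (adjusted p = 0.0987). Rxrg was not tested, with 7 counts or fewer in each FBS library.

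Genes of retinoid metabolism went both ways. Of 20 tested genes for uptake, binding and metabolism, 8 were higher and 7 lower, with a median of 0.11 (0.02 over all genes tested). The summed level of all 28 listed genes, tested or not, was 7098 and 7593 CPM in wild-type and 3120 and 3747 CPM in Rxra cKO. Most of it was Fabp5, a carrier of fatty acids and retinoic acid, which is named after its values were seen. Fabp5 fell from 6497 and 6995 to 2372 and 2863 CPM (-1.37, adjusted p = 1.81e-05). Aldh1a3, which makes retinoic acid from retinaldehyde, was higher, from 56.4 and 68.8 to 297 and 364 CPM (2.40, SE 0.13, adjusted p = 3.90e-06), and the other synthesis genes Aldh1a1 and Aldh1a2 were below 0.5 CPM in all 4 libraries. Rdh12, a reductase that returns retinaldehyde to retinol, was 21.4-fold higher, from 1.35 and 1.2 to 25.9 and 28.8 CPM. Dhrs9, a retinol dehydrogenase, rose from 20.7 and 22.4 to 69.5 and 76.5 CPM (1.76). Cyp2s1, a cytochrome that retinoids induce, fell from 74.7 and 64.1 to 10.4 and 16.2 CPM (-2.38), and Cyp26b1, which degrades retinoic acid, fell from 27.9 and 21 to 14.8 and 16 CPM (-0.66).

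Genes known as direct targets of retinoic acid did not fall together in serum. Of 13 tested, 6 were higher and 2 lower, with a median of 0.74, and 1 was lower with limma, in the fit of only the 4 FBS libraries, or when any Rxra cKO library of either medium was left out, or replicate 1 of wild-type FBS, or replicate 2 of wild-type atRA+PKCi (3 without replicate 2 of wild-type FBS). Crabp2, which carries retinoic acid to its receptor, rose from 47.3 and 59.5 to 79.1 and 99.6 CPM (0.74). Dhrs3, which returns retinaldehyde to retinol and is a standard readout of retinoic acid, rose from 7.88 and 6.53 to 11.9 and 13.3 CPM (0.80). Stra6, the retinol importer, was at 69.2 and 65.5 against 63.2 and 68.4 CPM and did not pass (-0.03, adjusted p = 0.795). In atRA+PKCi the genotype difference of this list was 1 higher and 5 lower, Dhrs3 among the lower (-1.15). For 8 of the 13 the difference between media passed the test, against 24.6% of all tested genes.

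Among the partner receptors of RXRα, 8 of 12 tested were lower and 4 did not pass (median -0.41). With limma on the deposited normalized values on a log2 scale, 5 were lower. Nr1h4, the bile acid receptor FXR, fell from 8.14 and 8.38 to 1.01 and 1.43 CPM (-2.76, SE 0.32, adjusted p = 2.02e-04). Pparg, the PPAR of sebocytes and fat cells, fell from 1.39 and 1.58 to 0.468 and 0.291 CPM (-1.97), and Thrb, a thyroid hormone receptor, fell by 1.52, a call that limma did not make at either pseudocount (-1.15 and -1.16, adjusted p = 0.16 and 0.165). Vdr, the vitamin D receptor, stood at 73.7 and 66.8 against 75.7 and 74.5 CPM and did not pass (0.10, adjusted p = 0.29).

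Targets of those partners went both ways, with 4 of 15 higher and 8 lower (median -0.31). The LXR targets Abca1 and Abcg1, which export cholesterol, were lower (-1.02 and -1.64), with Abcg1 at 14.3 and 13.1 against 4.21 and 4.57 CPM. Abca1 did not pass without Rxra cKO replicate 1 (-0.81, adjusted p = 0.0783) or without wild-type replicate 1 (-0.72, adjusted p = 0.0781). Angptl4, a PPAR target that blocks lipoprotein lipase, rose from 4.05 and 3.32 to 18.4 and 23.4 CPM (2.50). Scd1, which desaturates fatty acids, fell from 190 and 157 to 61.7 and 59.4 CPM (-1.52).

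AP-1 and immediate early genes formed the list with the lowest median of all those with at least 10 tested members. Of 19 tested, 17 were lower and 2 higher, with a median of -1.01. Fos fell 5.38-fold, from 405 and 323 to 70.3 and 65.1 CPM (-2.43, SE 0.12, adjusted p = 1.66e-06). Egr1, an early growth response factor, fell from 244 and 178 to 60.1 and 60.6 CPM (-1.81), Dusp1, a phosphatase that switches MAP kinases off, fell by 1.71, and Junb fell 2-fold, from 437 and 387 to 194 and 218 CPM. The 2 higher genes, Batf3 (1.12) and Egr2 (1.01), were near 1 CPM or below in wild-type, and both were named after their values were seen, to complete this count. Neither of them passed without Rxra cKO replicate 2, without either wild-type replicate or with DESeq2 (adjusted p = 0.242 for Batf3 and 0.0624 for Egr2). Batf3 also did not pass without Rxra cKO replicate 1 or without atRA+PKCi replicate 1 of wild-type. Nor did it pass with no filter on low counts or with the replicate block (adjusted p = 0.0505). Egr2 did not pass with limma or in the fit of only the 4 FBS libraries. The value of Egr2 was 0.54 without Rxra cKO replicate 2, and 0.67 and 0.66 with limma at a pseudocount of 0.5 and 1.

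Glycolysis and hypoxia genes were lower without exception, all 21 tested, with a median of -0.94. Egln3, the oxygen-sensing prolyl hydroxylase that HIF induces, fell 5.35-fold, from 1136 and 1107 to 190 and 229 CPM (-2.42, SE 0.11, adjusted p = 1.36e-06). Ndrg1, a stress gene that hypoxia induces, fell from 737 and 656 to 126 and 168 CPM (-2.25). Slc2a1, the glucose transporter GLUT1, fell from 858 and 751 to 208 and 233 CPM (-1.87, SE 0.10, adjusted p = 2.67e-06). Ldha, which turns pyruvate into lactate, fell from 3181 and 3398 to 1817 and 2019 CPM (-0.78), and Vegfa, the angiogenic factor, fell from 354 and 306 to 172 and 172 CPM (-0.94). In atRA+PKCi 17 of the 21 were lower as well (median -0.73).

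**Figure D4:**
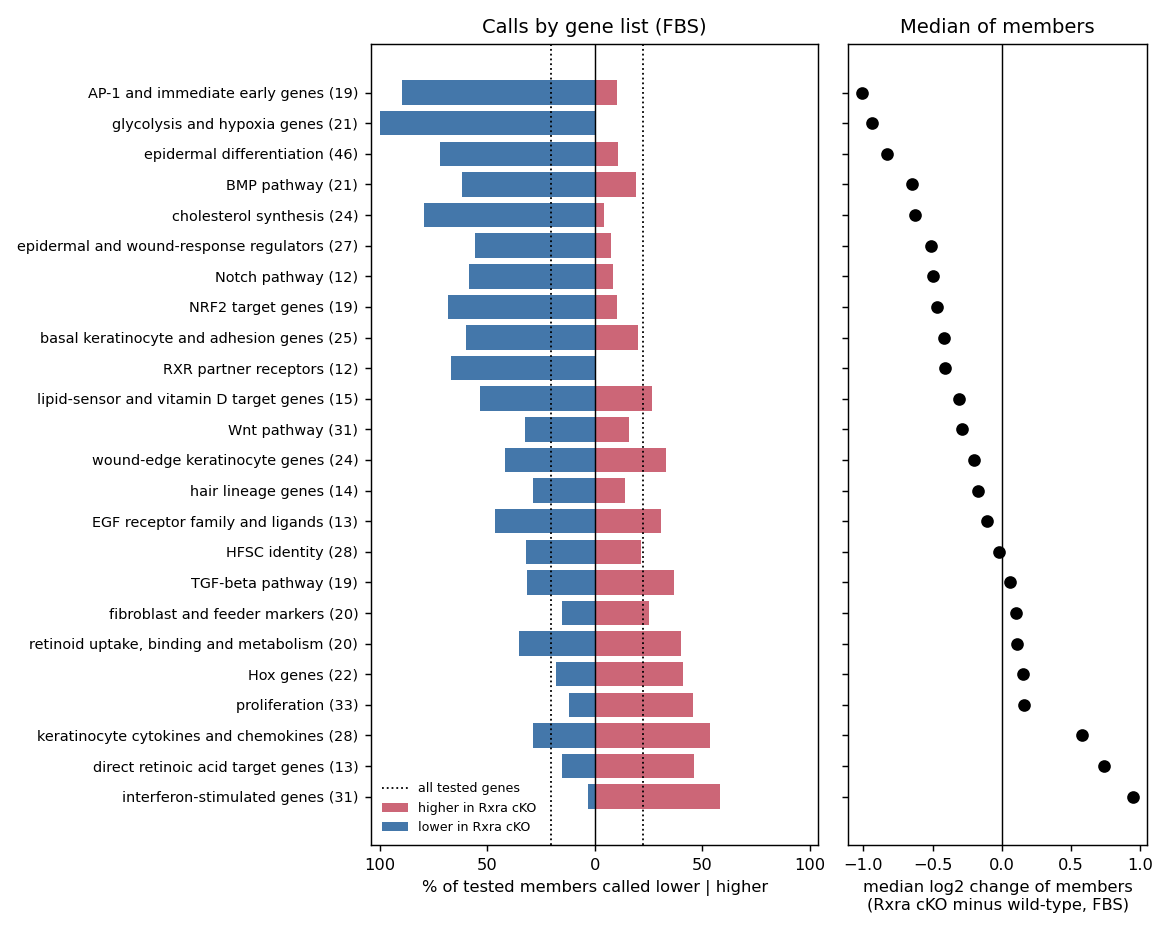
Share of tested members called lower (blue, to the left) or higher (red, to the right) in Rxra cKO FBS for 24 gene lists with at least 10 tested members (numbers in brackets), with dotted lines at the shares over all tested genes (20.5% and 22.3%), and at the right the median log2 change of each list. AP-1, glycolysis and hypoxia, and epidermal differentiation genes lie lowest, and interferon-stimulated genes highest at 0.95.

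Epidermal differentiation genes were mostly lower in Rxra cKO FBS. Of 46 tested, 33 were lower and 5 higher, with a median of -0.83. Krt10, the keratin of suprabasal epidermis, fell 16.5-fold, from 153 and 127 to 8.59 and 8.36 CPM (-4.05, SE 0.15, adjusted p = 4.21e-07). Tgm3, a transglutaminase of the cornified envelope that lies in the distal chromosome 2 stretch, fell from 672 and 578 to 32.3 and 39.3 CPM (-4.12). Krtdap fell from 749 and 968 to 222 and 313 CPM (-1.68), and Lor, loricrin, from 67.2 and 51.1 to 23.8 and 28.4 CPM (-1.18). Ivl, involucrin, went the other way, from 226 and 277 to 420 and 506 CPM (0.88), and Flg, filaggrin, did not pass (0.33, adjusted p = 0.268), with the 2 wild-type libraries at 91.2 and 51.2 CPM. It passed as higher without wild-type replicate 1 (0.81, adjusted p = 9.65e-04) and when genes of low counts were kept (0.31, adjusted p = 0.00415). Of the list, 2 genes were higher without either Rxra cKO library or with limma, and 3 without wild-type replicate 1 or with DESeq2.

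In the other medium the same list had the opposite genotype difference. In atRA+PKCi 39 of the 46 were higher in Rxra cKO and the other 7 did not pass, with a median of 2.59. The difference between media passed for all 46, against 24.6% of all tested genes, and 27 were called in opposite directions. Over all tested genes, 275 of the 3565 higher in FBS were lower in atRA+PKCi, and 408 of the 3275 lower in FBS were higher there. For Krt10, wild-type went from 153 and 127 CPM in FBS to 6.09 and 6.53 CPM in atRA+PKCi, while Rxra cKO went from 8.59 and 8.36 to 29.8 and 22.9 CPM. The FBS and atRA+PKCi comparisons use separate libraries, taken as coming from the same mice.

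**Figure D5:**
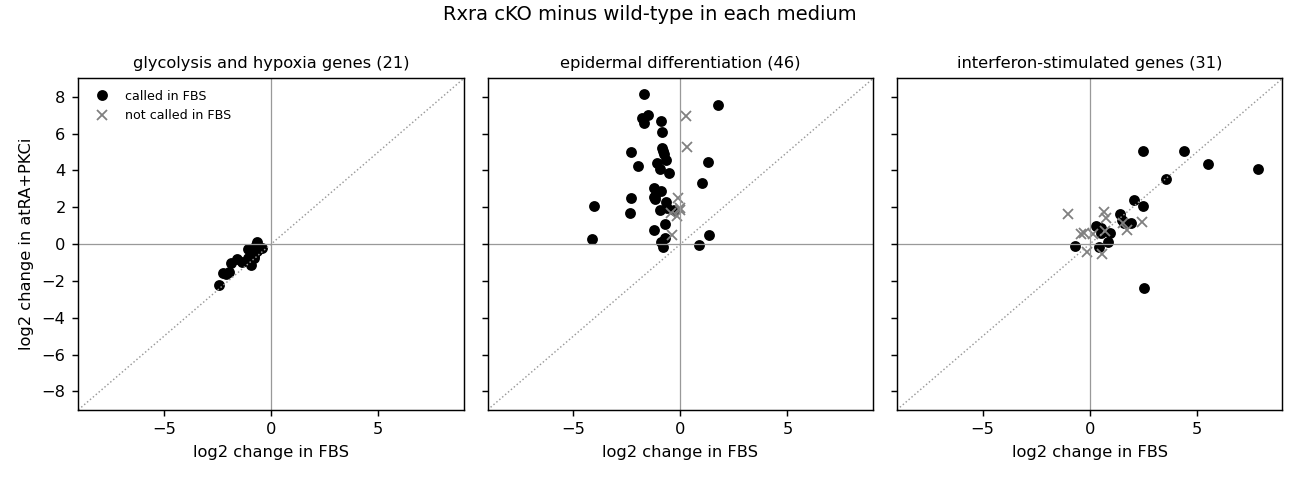
Log2 change of Rxra cKO over wild-type in FBS (x axis) and in atRA+PKCi (y axis) for 3 lists, with filled circles for genes called in FBS, crosses for those not called, and a dotted line of equal change. Glycolysis and hypoxia genes lie below 0 on the x axis and 17 of 21 are called lower on both axes, 39 of 46 epidermal differentiation genes are called higher in atRA+PKCi, and 18 of 31 interferon-stimulated genes are called higher in each medium.

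Transcription factors of epidermal fate and the wound response were lower more often than higher, with 15 of 27 lower and 2 higher (median -0.51). Klf5, the epidermal factor that the study uses with SOX9 to mark lineage plasticity, fell from 154 and 132 to 101 and 96.5 CPM (-0.53, SE 0.08, adjusted p = 9.76e-04). Grhl1, a grainyhead factor of the barrier, fell from 102 and 97.2 to 64.6 and 75.4 CPM (-0.51), and Grhl3 did not pass (0.26, adjusted p = 0.068) unless wild-type replicate 1 was left out (0.41, adjusted p = 0.0113). Hmga2, a chromatin factor of embryonic and wound states, rose from 258 and 259 to 736 and 653 CPM (1.43).

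Wound-edge keratinocyte genes split within families. Of 24 tested, 8 were higher and 10 lower (median -0.20). Krt17 rose 21.4-fold, from 78.1 and 95.2 to 1731 and 1983 CPM (4.42, SE 0.14, adjusted p = 2.17e-07), while the other stress keratins fell, Krt6b from 6358 and 6254 to 1698 and 2121 CPM (-1.72), Krt16 from 6775 and 6738 to 2193 and 2587 CPM (-1.50) and Krt6a from 13489 and 13391 to 7504 and 8171 CPM (-0.78). Krt6a and Krt6b are near-identical copies, as are parts of Krt14, Krt16 and Krt17, so how reads were shared among them is uncertain. Mmp13, a collagenase, fell from 2210 and 2387 to 442 and 555 CPM (-2.21). Mmp9, a gelatinase, rose from 5.8 and 4.98 to 15.5 and 18.4 CPM (1.65), although it lies in the distal chromosome 2 stretch.

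Basal keratinocyte and adhesion genes were lower in 15 of 25 cases and higher in 5 (median -0.42). Krt14 fell from 20524 and 22350 to 11635 and 13390 CPM (-0.78), Krt5 by 0.42, and Itga6, the hemidesmosome integrin used to sort basal cells, fell from 1444 and 1270 to 780 and 736 CPM (-0.84). Dsg2, a desmosomal cadherin, was near absent in wild-type at 0.146 and 0.193 CPM and stood at 17.9 and 19.2 CPM in Rxra cKO (6.75, SE 0.32).

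Stem cell identity genes showed no common direction. Of 28 tested HFSC genes, 6 were higher and 9 lower, with a median of -0.02, and 5 were lower without wild-type replicate 1 or without Rxra cKO replicate 2. Sox9 fell from 105 and 81.8 to 70.1 and 74.9 CPM (-0.36, SE 0.11, adjusted p = 0.0294), and without wild-type replicate 1 it was -0.17 (adjusted p = 0.154). It also did not pass without Rxra cKO replicate 1 (-0.33, adjusted p = 0.123), without Rxra cKO replicate 2 (-0.41, adjusted p = 0.0736) without atRA+PKCi replicate 2 of Rxra cKO (-0.36, adjusted p = 0.0534), in the fit of only the 4 FBS libraries (adjusted p = 0.0661) or with limma at either pseudocount (adjusted p = 0.0511 and 0.053). Krt15 rose from 3.65 and 4.75 to 6.51 and 8.23 CPM (0.82) and Cd34 from 0.474 and 0.618 to 2.91 and 1.78 CPM (2.09), both at low levels, whereas wild-type cells in atRA+PKCi had 4576 and 4430 CPM of Krt15. Barx2, a homeobox factor of the bulge, fell from 37.6 and 36.4 to 12.4 and 13.7 CPM (-1.50). Nfix, Nfib, Tbx1, Tcf7l2 and Nfatc1 did not pass, with log2 changes between -0.25 and 0.34. Nfix, whose wild-type libraries stood at 30.7 and 20 CPM, passed as lower without wild-type replicate 2 (-0.38, adjusted p = 0.0364). Lhx2 and Lef1, which mark the bulge and the hair matrix, were too low to be tested. Of the bulge markers named at the start, Sox9 was the one well above 10 CPM in FBS, and the abundant keratins Krt14 and Krt5 mark basal keratinocytes in general.

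Dkk3, a secreted relative of Wnt inhibitors, rose from 5.22 and 5.45 to 33.3 and 33.3 CPM (2.64). Over the Wnt pathway, 5 of 31 were higher and 10 lower (median -0.29), with the receptor Fzd7 lower, from 36.2 and 30.8 to 15.9 and 17.1 CPM (-1.02), and Fzd10 higher, from 0.292 and 0.309 to 6.19 and 5.38 CPM (4.25). Of 14 tested hair lineage genes 2 were higher and 4 lower, and 1 was higher without either Rxra cKO library, without wild-type replicate 2, with DESeq2, with no filter on low counts or in the fit of only the 4 FBS libraries. Tchh, trichohyalin of the inner root sheath, fell from 86.2 and 79.7 to 17.3 and 21.8 CPM (-2.08), and Msx1, a homeobox factor, rose from 0.182 and 0.116 to 1.98 and 2.07 CPM (3.72).

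Of 21 tested genes of the BMP pathway, whose signals hold HFSCs quiescent, 13 were lower and 4 higher (median -0.65), counting ligands, inhibitors and targets alike, and outside the stretches 10 of 16 were lower. Bmp2, a ligand in the distal chromosome 2 stretch, fell 12-fold, from 22.4 and 15.6 to 1.58 and 1.59 CPM (-3.58, SE 0.21, adjusted p = 4.71e-06). Smad6, an inhibitor that BMP induces, fell from 13.9 and 12.2 to 1.91 and 2.53 CPM (-2.56). Among the Id genes, which BMP also induces, Id1 of the same stretch (-0.89) and Id2 (2-fold) were lower, and Id3 was at 123 and 116 against 118 and 122 CPM (0.01, adjusted p = 0.965). In the Notch pathway 7 of 12 were lower and 1 higher (0 higher without Rxra cKO replicate 2 or wild-type replicate 2, and 2 without wild-type replicate 1 or with limma). The pathway's ligand Jag1 of the distal chromosome 2 stretch stood at 658 and 536 against 285 and 285 CPM (-1.07), and the target Hes1 at 232 and 212 against 114 and 142 CPM (-0.79).

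TGF-beta genes went both ways, with 7 of 19 higher and 6 lower. The matrix protein Tgfbi fell from 1018 and 988 to 241 and 258 CPM (-2.01), the ligand Tgfb2 fell from 13.5 and 12.3 to 2.73 and 2.98 CPM (-2.17), and Thbs1, which activates latent TGF-beta, rose from 87.9 and 76.8 to 268 and 288 CPM (1.76). Of the EGF receptor family and its ligands, 4 of 13 were higher and 6 lower, with 2 higher without Rxra cKO replicate 2. Egfr rose from 58 and 52.3 to 80.2 and 84.5 CPM (0.58), and Erbb3, a receptor of neuregulins, fell from 81.6 and 62.5 to 28.7 and 35.4 CPM (-1.17).

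Cholesterol synthesis genes were mostly lower, with 19 of 24 lower and 1 higher (median -0.63). Mvd, mevalonate decarboxylase, fell from 102 and 87.5 to 26.2 and 25.3 CPM (-1.88, SE 0.10, adjusted p = 2.89e-06), and Sqle, squalene epoxidase, from 394 and 353 to 150 and 157 CPM (-1.28). Of 19 NRF2 target genes, which guard against oxidants, 13 were lower and 2 higher (median -0.47). Gsta4, a glutathione transferase, fell from 1827 and 2082 to 734 and 812 CPM (-1.34), and Nqo1, a quinone reductase, from 118 and 125 to 62.9 and 59.4 CPM (-0.99).

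Cytokines and chemokines of keratinocytes were higher in 15 of 28 cases and lower in 8 (median 0.58), and lower in 5 without Rxra cKO replicate 1 or wild-type replicate 2. Ccl2, which draws monocytes, rose 22.4-fold, from 2.34 and 0.927 to 32.4 and 41.4 CPM (4.48, SE 0.28, adjusted p = 6.56e-06). Lcn2, an iron-binding antimicrobial protein, rose from 0.109 and 0.618 to 8.49 and 11.9 CPM (4.82), Csf2, which encodes GM-CSF, from 1.09 and 0.889 to 9.85 and 10.5 CPM (3.35), and Cxcl3, a neutrophil chemokine, from 83.8 and 83.9 to 354 and 340 CPM (2.05). Il1rn, the antagonist of the interleukin-1 receptor, went down, from 61.9 and 64.5 to 22.7 and 24.7 CPM (-1.42).

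Interferon-stimulated genes formed the list with the highest median among those drawn, 0.95, with 18 of 31 higher and 1 lower, or 2 lower without Rxra cKO replicate 2 or with no filter on low counts. The summed level of the list was 430 and 435 CPM in wild-type and 574 and 636 CPM in Rxra cKO, and the called genes named next were at low levels. The GTPase Gbp2 rose 11.9-fold, from 0.255 and 0.27 to 2.66 and 3.66 CPM (3.57, SE 0.30, adjusted p = 3.03e-05), the RNA sensor Ddx58 from 7.66 and 7.38 to 25 and 21.4 CPM (1.62), the RNA sensor Ifih1 from 3.32 and 3.28 to 9.24 and 8.13 CPM (1.39) and Bst2, tetherin, from 2.52 and 1.97 to 6.15 and 6.51 CPM (1.49). The common reporters Isg15, Ifit1 and Irf7 did not pass (-0.40, 2.43 and -0.15). In atRA+PKCi the counts were also 18 higher and 1 lower.

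Of 33 tested proliferation genes, 15 were higher, 4 lower and 14 did not pass (median 0.16), and 2 were lower with limma, in the fit of only the 4 FBS libraries, or without Rxra cKO replicate 2, wild-type replicate 2 or either atRA+PKCi library of Rxra cKO. Outside the stretches 15 of 29 were higher and 1 lower. Ccnd1, the cyclin of the G1 phase, rose from 246 and 247 to 678 and 593 CPM (1.37), and Mcm6 of the replicative helicase from 45.9 and 45.4 to 75.6 and 71.3 CPM (0.69). Mki67 did not pass (-0.15, adjusted p = 0.247), with 208 and 177 against 184 and 162 CPM. Pcna, the sliding clamp, lies in the distal chromosome 2 stretch and fell from 286 and 359 to 171 and 181 CPM (-0.87). Of the cell cycle inhibitors, Cdkn2a rose from 13.3 and 14.6 to 47.9 and 55.2 CPM (1.88) and Cdkn1b fell from 89.1 and 84.8 to 47.5 and 50.3 CPM (-0.83). In atRA+PKCi the list was 24 lower and 3 higher in Rxra cKO (median -0.55).

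Hox genes, which record position along the body, were higher in 9 of 22 cases and lower in 4, with 5 higher by DESeq2 or in the fit of only the 4 FBS libraries. Hoxa9 stood at 0.365 and 0.0773 CPM in wild-type and 10.2 and 10.4 CPM in Rxra cKO (5.49), Hoxc8 at 1.68 and 0.966 against 9.06 and 8.49 CPM (2.72) and Hoxb9 at 19.5 and 17.6 against 41.6 and 40.7 CPM (1.15). Hoxa4 and Hoxa2, in contrast, were lower (-1.47 and -1.08).

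The largest changes were of genes close to absence in one genotype. Among called genes, 116 were at 0 in each wild-type FBS library and 12 at 0 in each Rxra cKO FBS library, and 29 of the 116 were at 0 in all 4 wild-type libraries. Such genes passed the filter on low counts only through the groups that had counts, so these numbers depend on the filter. Tested genes at 0 that were not called were not counted. Wild-type FBS libraries also had fewer genes with any count, as given above. Taking 3 counts over the 2 wild-type libraries as the limit that 0 counts allow, Sdr39u1 of the chromosome 14 stretch was at least 282-fold higher, with 16.5 and 15.4 CPM in Rxra cKO, and Cd59a, a complement inhibitor, was at least 175-fold higher, with 8.77 and 10.8 CPM. Cldn7, a claudin of tight junctions, was at least 71.4-fold higher, with 3.92 and 4.11 CPM, and S100a1, a calcium-binding protein, at least 105-fold higher. Trbc2, Nmral1, 5730409E04Rik, Morn4 and Zfp422 were at least 68.1-fold to 117-fold higher. Gm6565 also ranked here, but its fit had an SE of 2.45, since among wild-type libraries it was counted only in 1 of atRA+PKCi, and it did not pass without Rxra cKO replicate 1 (adjusted p = 0.0514), nor did DESeq2 call it (adjusted p = 0.0945).

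The 10 largest decreases under the rule for named genes are given next, not in order of size. Pitx1, a homeobox factor of hindlimb identity, fell 37.8-fold, from 128 and 121 to 2.77 and 3.76 CPM (-5.24, SE 0.15, adjusted p = 1.37e-07). Sox2, a factor of stem and progenitor cells, fell from 4.64 and 5.06 to 0.18 and 0.0972 CPM (-5.11), and Igf2bp3, an RNA-binding protein of fetal tissue, from 12.4 and 10.3 to 0.36 and 0.356 CPM (-4.98). Pgf, placental growth factor of the VEGF family, fell from 130 and 125 to 1.94 and 4.6 CPM (-5.27). Slc15a2, a peptide transporter, fell from 33.3 and 35.7 to 0.468 and 0.486 CPM (-6.16), and Grik3, a kainate receptor subunit, from 18.8 and 12.9 to 0.18 and 0.13 CPM (-6.65). Gipr, 4631405J19Rik, Rnu1a1 and Pcdhga12 completed the 10, of which Pcdhga12 shares exons with its cluster. Gipr (-5.63) had counts in 1 Rxra cKO library and was -10.29 without it, replicate 2, a value set by the fit's prior. Rnu1a1 (-5.44) was uneven in wild-type, with 21.1 CPM in replicate 2 against 1.79 CPM in replicate 1. It was -2.76 without wild-type replicate 2, -11.45 without Rxra cKO replicate 1 and did not pass without Rxra cKO replicate 2 (-4.39, adjusted p = 0.0577).

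Markers of other cells were checked in the same libraries. The summed level of 24 fibroblast and feeder markers, of which 20 were tested, was 864 and 878 CPM in wild-type and 701 and 688 CPM in Rxra cKO. Most of it was Sparc, which keratinocyte cultures also express. The defining collagens were near 0, Col1a1 at 3.36 and 0.889 against 0.863 and 1.26 CPM (adjusted p = 0.33, and lower when genes of low counts were kept, -1.01, adjusted p = 0.0146), and of the list 5 were higher and 3 lower. Vim, an intermediate filament of mesenchymal cells, was higher, from 0.584 and 0.464 to 8.27 and 10.3 CPM (4.13), and Fn1, fibronectin, lower, from 13.7 and 11.4 to 2.37 and 1.94 CPM (-2.54). Immune markers summed to 15.1 and 18 CPM against 8.45 and 8.74 CPM, most of it Cd68, with Ptprc and Lyz2 at 4 counts or fewer per library and Cd3e at 0. Among the 3 tested immune markers, 1 was higher and 1 lower, and 0 were higher in the fit of only the 4 FBS libraries. Of the 6 tested endothelial and mural markers 3 were higher and 1 lower. All 10 listed markers of these cells summed to 4.16 and 3.79 against 3.34 and 4.28 CPM, the most counted being Pecam1, with Cdh5 at 2 counts or fewer. The melanocyte genes Dct and Sox10 had at most 1 count, and both tested markers, Mitf with the most counts, did not pass. All 8 listed melanocyte markers summed to 6.1 and 5.37 against 4.5 and 5.21 CPM.

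Xist was counted in all 4 libraries, at 516 and 618 against 776 and 736 CPM, and Ddx3y of the Y chromosome had at most 1 count in each. By these genes all 4 libraries read as female. The difference of Xist (0.41, adjusted p = 0.0342) did not pass without wild-type replicate 1, without either Rxra cKO FBS library or without either Rxra cKO atRA+PKCi library, where adjusted p lay between 0.0614 and 0.16.

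The genotype difference in serum overlapped only in part with that in atRA+PKCi. Of the 3565 genes higher in Rxra cKO FBS, 1984 were also higher in atRA+PKCi and 275 were lower there. Of the 3275 lower genes, 1514 were lower and 408 higher in atRA+PKCi. The 2 comparisons share no library, but their libraries were taken as coming from the same mice. The difference of the genotype effect between media passed for 3924 genes (24.6%), 1807 with the larger value in FBS and 2117 with the smaller. Without atRA+PKCi replicate 1 or 2 of Rxra cKO it passed for 2458 and 2392 genes. It passed for 1282 of the higher and 1304 of the lower genes of the FBS comparison.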

How the data were processed

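Bulk RNA-seq covered 2 genotypes and 2 media, and the cultures of each genotype came from 2 mice. The authors quantified transcripts with salmon 1.4.0 on mm10, summed them per gene with tximport and deposited estimated counts without normalization, and library strand is not given in the sources used here. The authors also deposited a normalized signal per gene and library (counts divided by size factors, as DESeq2 makes them), which entered only the limma alternatives.

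The table held 51906 symbols. Rounded values were tested by the quasi-likelihood method of edgeR 4.0.16 under R 4.3.3, after filterByExpr and TMM scaling, with 4 group means fitted over 8 libraries and Benjamini-Hochberg adjustment over 15965 genes (adjusted p under 0.05). Replicates of wild-type FBS differed by a chi-square of 23.9 per gene and those of Rxra cKO FBS by 14, above the 1 of counting error. The fit was tried on simulated counts with 200 changed genes and no shifted stretches. It recovered 75% of genes changed by 1 and 99% of those changed by 2 on the log2 scale, with 10 false calls. The data hold far more changed genes, so these rates need not apply to them. Intervals of ratios are exact and, like limits set by 0 counts, cover counting error only. Gene positions came from GENCODE M21 (GRCm38), unique for 15599 tested genes, and chromosome medians used genes above 5 CPM and a pseudocount of 0.5 CPM. Promoters came from RefSeq tables and figures from matplotlib 3.10.9.

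The comparison, its gene lists and the stretches were chosen with earlier results of these data known. Genes named are those the study's text names for HFSC identity, epidermal fate or retinoids, lead members of a list, the 5 called members of a list with the largest change at a mean of at least 1 CPM, and the 10 highest and 10 lowest called genes whose normalized counts averaged 50 or more, with no overlap between groups. Batf3, Egr2, Fabp5, Mitf and Sparc were named outside this rule, and some genes that it takes in are not reported here.

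Per the labels, each library comes from mouse 1 or mouse 2, with these numbers in every group. The same number was taken as the same mouse across the media of a genotype, which the labels do not state outright, and as different mice across genotypes. Deviations from group means of same-numbered libraries had correlations of 0.135 (wild-type) and -0.000821 (Rxra cKO) between media. Alternatives were DESeq2 1.42.0, RLE scaling, no filter, a threshold of adjusted p under 0.01 with a log2 change over 1, only the 4 FBS libraries, limma 3.58.1 on log2 of the normalized signal plus 1 or 0.5, a replicate block, and leaving out each library. A block by mouse and leaving out the stretches were chosen after seeing the data. ATAC-seq, CUT&RUN and single cell samples were not analysed here.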

Additional observations from a re-analysis of the deposited data

Results flagged for a closer look

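For 3924 genes the genotype difference in FBS differed from that in atRA+PKCi in the test of the interaction (edgeR quasi-likelihood, adjusted p under 0.05), and 75 of the genes named above are among them. Values below are the log2 genotype difference in FBS minus that in atRA+PKCi, so that a negative value means that the genotype difference was lower in FBS than in atRA+PKCi, whichever genotype was higher in FBS. With the mouse as a block, 71 of the 75 also passed, and Cd34 (adjusted p = 0.0707), Ddx58 (0.0727), Pparg (0.078) and Vim (0.0617) did not. No explanation was tested for any of them. Groups of 2 libraries were too small to test single libraries for standing apart.

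Rxra itself differed by -0.51. In retinoid metabolism the values were -3.88 for Aldh1a3, -3.63 for Rdh12, -2.38 for Dhrs9, -1.27 for Fabp5, 1.95 for Dhrs3, 1.69 for Cyp26b1 and 0.80 for Crabp2. Among partner receptors and lipid genes they were -2.37 for Nr1h4, 1.93 for Pparg, -2.90 for Abcg1 and -0.48 for Scd1, and in cholesterol and NRF2 genes -1.29 for Mvd and 1.12 for Nqo1.

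Keratinocyte differentiation genes had -8.26 for Krtdap, -6.11 for Krt10, -4.94 for Flg, -4.39 for Tgm3, -3.81 for Lor and 0.92 for Ivl. Keratins and wound-edge genes had -6.01 for Krt6b, -5.57 for Mmp13, -3.66 for Krt16, -1.82 for Krt6a, -1.78 for Krt14, -0.84 for Krt5 and -1.36 for Mmp9. Regulators had -2.33 for Grhl1, -0.77 for Klf5, -0.76 for Grhl3 and 1.07 for Hmga2. Of HFSC and hair genes, Krt15 had 5.00, Cd34 had 1.81, Sox9 had 0.51 and Tchh had -3.58.

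Immediate early genes had -1.50 for Egr1, -1.02 for Fos, -0.99 for Dusp1, -0.80 for Junb and 2.85 for Batf3. Hypoxia genes had -0.83 for Slc2a1 and -0.67 for Ndrg1. In BMP, Notch and TGF-beta signaling the values were -1.34 for Bmp2, -0.85 for Smad6, 1.10 for Id1, 1.22 for Id2, 0.55 for Id3, -0.70 for Jag1, -0.74 for Hes1, -3.91 for Tgfb2, -0.77 for Tgfbi and 0.40 for Thbs1.

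Cytokines and interferon genes had -2.24 for Ccl2, -1.61 for Csf2, -0.78 for Cxcl3, -1.96 for Il1rn and 0.48 for Ddx58. Cell cycle genes had 0.80 for Ccnd1, 0.86 for Mcm6, 1.23 for Mki67, -0.91 for Cdkn2a and 0.47 for Cdkn1b. Hox genes had 1.22 for Hoxa2, 2.75 for Hoxc8 and -1.66 for Hoxb9.

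The remaining ones were -4.84 for Slc15a2, -2.36 for Pgf, -2.93 for 4631405J19Rik, 4.89 for Morn4, -1.87 for Fn1, 0.87 for Vim, -1.63 for Pecam1 and 1.76 for Xist. Gm6565 had 18.89 and Rnu1a1 had -6.25, and the counts of both were uneven between replicate libraries, as given above.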

How the results depend on the processing

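Of 134 named genes with a test, 121 kept their direction and their side of the threshold under all of the 15 alternatives other than the stricter threshold that gave them a value (Aldh1a1, Ifit1 and Rarb had none in the fit of only the 4 FBS libraries), none changed direction there, and the 13 others are Abca1, Batf3, Col1a1, Egr2, Flg, Gm6565, Grhl3, Nfix, Rnu1a1, Rxrb, Sox9, Thrb and Xist. At adjusted p under 0.01 with a log2 change over 1, 1105 genes were higher, 656 lower and 1134 differed between media, 157 list members were called in place of 372, and Rxra (-0.49) no longer passed, since its change is below 1. With DESeq2, 2782 genes were higher and 2835 lower, and in a fit of only the 4 FBS libraries 2900 and 2635. Under the replicate block by number, which across genotypes joins different mice (their deviations correlated at 0.103), 3531 were higher and 3324 lower, and with the mouse as a replicate block across media 3615 genes differed between media. Leaving out 1 library gave 2637 to 3444 higher genes, 2493 to 3349 lower genes, 2392 to 4335 genes that differed between media, 328 to 371 called list members and -0.63 to -0.34 for Rxra, and where it leaves a group with 1 library, that library is assumed to vary like the others. The cause of these moves was not tested. Depth limits what can be said of genes with few counts, such as Rarb with 1 count in each wild-type FBS library.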
